A study of Mus musculus with 27 samples.

Results

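Inflammasomes are protein complexes that cells assemble when they detect microbial products or damage inside the cell. The genes described here are the sensors of these complexes and the adaptor that links several of them to a protease: Naip1, Naip2, Naip5, Naip6, Nlrc4, Nlrp6, Nlrp3, Aim2 and Pycard. They were chosen by name, as 9 of the 22524 genes counted, and each was found by its Ensembl identifier in every library. The values compared are their transcript levels in mouse jejunal organoids, in m-ICc12 cells and in mouse embryonic fibroblasts (MEFs), culture by culture.

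A sensor of the NAIP family binds a bacterial protein in the cytosol and then recruits NLRC4. NAIP1 binds the needle protein and NAIP2 the inner rod protein of type III secretion systems, whereas NAIP5 and NAIP6 bind flagellin. NLRP6 is a sensor known from the intestinal epithelium, NLRP3 responds to membrane damage and ion flux and is best known from myeloid cells, and AIM2 binds cytosolic DNA. ASC, the product of Pycard, bridges sensors to Caspase-1, which matures IL-18 and IL-1β and cleaves gasdermin D, the pore former that ends in pyroptosis and in the expulsion of infected enterocytes.

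The organoids came from the distal jejunum of 9 C57BL/6 mice, adult male cohoused littermates within a facility: 3 mice from specific pathogen-free (SPF) facility 1 (SR), 3 from SPF facility 2 (SE) and 3 germ-free mice (GF). Each mouse gave 1 organoid line, cryopreserved and then used at passage 5 to 8, so that the cells had been away from the microbiota of their donor for weeks. The m-ICc12 line is an immortalised mouse small intestinal epithelial line, and it and the MEFs were each sampled 3 times. Every organoid and m-ICc12 culture gave 1 library labelled untreated (medium change) and 1 labelled treated with 5 ng/ml murine TNF for 8 h, and the MEFs gave only untreated libraries, which makes 27 libraries. For m-ICc12 cells the libraries of a pair are matched by their number only. Organoid cultures are named here by the numbers of their libraries: Z908, Z909 and Z910 for SR, Z911, Z912 and Z913 for SE, and Z917, Z918 and Z919 for GF. M1 to M3 are the m-ICc12 cultures and R1 to R3 the MEF cultures.

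The treatment labels need care. In all 12 pairs, a code in the name of the deposited table gives the opposite treatment to the sample's label. The TNF target genes Nfkbia, Nfkb2, Tnfaip3 and Relb were lower in the library labelled TNF in 9 of 9 organoid cultures and in 3 of 3 m-ICc12 pairs. In organoids their log2 fold changes ran from -2.66 to -1.49 (edgeR's quasi-likelihood test with Benjamini-Hochberg adjustment, adjusted p from 6.4e-17 to 2.9e-08). Every treatment direction below is therefore given as "labelled TNF" against "labelled untreated", and exchanging the labels turns its sign.

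The libraries held 6071103 to 43843615 counts. Levels are given as CPM, the usual library-size-normalised read count, after scaling by the trimmed mean of M-values (TMM), and 3 counts, the smallest number taken as a level, corresponded to 0.0684 to 0.494 CPM. A summed level of 8 intestinal epithelial genes was 6678 to 7767 CPM in organoids, 1581 to 2173 CPM in m-ICc12 cells and at most 21.4 CPM in MEFs, and a sum of 6 fibroblast genes was 3225 to 4267 CPM in MEFs, with Thy1 at 0 in all 27 libraries. The sum of 9 leukocyte genes was 3.50 to 20.2 CPM in organoids, with the macrophage marker Adgre1 at 0, and 74.9 to 144 CPM in m-ICc12 cells, with 5 of the 9 genes at 0. One organoid culture, Z908, stood apart in its Naip5 and Naip6 levels, and the tests that rest on it are given with and without it.

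The 4 Naip genes lie close together on the minus strand of chromosome 13 (GRCm38). Naip2 (ENSMUSG00000078945) spans chr13:100144063-100202092, Naip5 (ENSMUSG00000071203) chr13:100211739-100246323, Naip6 (ENSMUSG00000078942) chr13:100281121-100317674 and Naip1 (ENSMUSG00000021640) chr13:100407764-100452869. Their coding sequences are close relatives: Naip5 and Naip6 were 97.0% identical, with 128 differing bases among 4209 aligned, and the other 5 pairs were 89.5% to 91.9% identical. Of the 100-base windows in the annotated transcripts, 16.2% for Naip5, 13.0% for Naip1, 6.26% for Naip6 and 4.44% for Naip2 occur letter for letter in the transcript of another gene. For windows of 120 bases, the length of a full read after trimming, the shares were 12.3%, 9.11%, 3.88% and 2.04%. At that length Naip5 and Naip6 have 226 such windows in common, which is 4.44% of the Naip5 windows and 3.37% of the Naip6 windows. Naip5 and Naip1 share more of them with Naip3, a gene outside this set, than with any member. These were 385 windows of Naip5 (7.57%) and 437 of Naip1 (7.73%). A read that lies wholly within such a stretch cannot be assigned to 1 gene, and how the counting treated it is not stated, so the values of single Naip genes carry that uncertainty. The other 5 members share no window of either length with another gene.

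The stretch of coding sequence below shows how the paralogs differ. It is the 90-base coding window at which the 4 genes differ at the most positions (51 of 90), read 5′ to 3′ along the coding strand, and capitals mark the positions that are not identical in all 4. It lies in coding exon sequence, in exon 10 of 15 for Naip1 (chr13:100425704-100425793) and Naip2 (chr13:100160443-100160532), and in exon 9 of 14 for Naip5 (chr13:100221775-100221864) and Naip6 (chr13:100299062-100299151).
Naip1: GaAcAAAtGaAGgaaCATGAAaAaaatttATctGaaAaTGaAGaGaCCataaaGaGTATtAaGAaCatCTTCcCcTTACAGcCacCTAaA
Naip2: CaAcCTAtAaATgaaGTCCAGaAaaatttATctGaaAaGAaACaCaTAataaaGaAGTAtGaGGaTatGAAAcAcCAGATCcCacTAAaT
Naip5: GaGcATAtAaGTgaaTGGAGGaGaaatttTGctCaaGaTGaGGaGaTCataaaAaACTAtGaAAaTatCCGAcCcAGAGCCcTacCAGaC
Naip6: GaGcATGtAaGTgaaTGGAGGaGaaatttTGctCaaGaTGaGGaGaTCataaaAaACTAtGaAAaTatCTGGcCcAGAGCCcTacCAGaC
Here Naip1 differed from Naip6 at 38 positions and Naip2 differed from Naip6 at 39, but Naip5 differed from Naip6 at only 3.

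At the other end of the scale is the window in which the 4 genes are most alike, again in exon 10 of Naip1 (chr13:100426982-100427071) and Naip2 (chr13:100161721-100161810) and exon 9 of Naip5 (chr13:100223053-100223142) and Naip6 (chr13:100300340-100300429). A single capital marks its 1 differing position, which sets Naip1 and Naip2 apart from Naip5 and Naip6.
Naip1 and Naip2: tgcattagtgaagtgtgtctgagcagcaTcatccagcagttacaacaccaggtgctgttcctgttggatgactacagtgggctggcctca
Naip5 and Naip6: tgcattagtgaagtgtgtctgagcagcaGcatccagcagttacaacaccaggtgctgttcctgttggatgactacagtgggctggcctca
This window on its own tells neither Naip5 from Naip6 nor Naip1 from Naip2.

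Of the 4 Naip genes, Naip6 had the highest level in the organoids and was far higher there than in either cell line. Across the 9 organoid libraries labelled untreated, Naip6 ran from 181 to 310 CPM with a median of 285 CPM (273 ± 39.6, SD, n = 9). In the m-ICc12 libraries labelled untreated it stood at 0.613, 0.436 and 0.840 CPM, and in the MEF libraries at 0.285, 0.401 and 0.306 CPM. Every organoid library was above every library of both lines, and the lowest organoid value was 216 times the highest m-ICc12 value among libraries labelled untreated and 57.8 times over both labels. As these are bulk samples, fewer cells that express a gene and less of its RNA per cell cannot be told apart.

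Naip5 was lower and more uneven. Its organoid values labelled untreated ran from 68.9 to 242 CPM with a median of 107 CPM (117 ± 51.4, n = 9), and the m-ICc12 values were 1.46, 1.37 and 0.336 CPM. The MEF libraries had 0.783, 0.301 and 0.191 CPM of Naip5. The groups did not overlap, and the wide spread among organoids came mostly from Z908.

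Naip1 and Naip2, the sensors of type III secretion proteins, differed least from the m-ICc12 line, and Naip2 was the most even of the family across cultures. Naip2 ran from 74.4 to 105 CPM with a median of 88.0 CPM in organoids labelled untreated (89.0 ± 10.5, n = 9, a coefficient of variation of 11.8%), against 6.13, 9.41 and 4.01 CPM in m-ICc12 cells and 0.546, 0.803 and 0.0764 CPM in MEFs. Naip1 ran from 64.2 to 112 CPM with a median of 88.6 CPM (86.0 ± 14.0, n = 9), against 6.86, 2.84 and 3.45 CPM in m-ICc12 cells and 0.0475, 0.0753 and 0.229 CPM in MEFs. These were the Naip genes with a clear level in m-ICc12 cells, although each organoid library still exceeded the highest m-ICc12 library, by at least 9.36 times for Naip1 and 7.91 times for Naip2 among those labelled untreated.

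Nlrc4 (ENSMUSG00000039193, chr17:74425438-74459142, minus strand), the partner that all NAIP sensors recruit, was present in every organoid library. It ran from 35.6 to 67.9 CPM with a median of 54.9 CPM in those labelled untreated (53.1 ± 10.5, n = 9). In m-ICc12 cells it was near the counting floor, with 4, 31 and 3 counts in M1, M2 and M3 labelled untreated, and the MEF libraries had 3, 2 and 2 counts. M2 thus carried most of the m-ICc12 signal, and still lay at 0.676 CPM, under the lowest organoid value.

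Nlrp6 (ENSMUSG00000038745, chr7:140920902-140929192, plus strand) had the narrowest spread of the members expressed in organoids among the libraries labelled untreated. It ran from 261 to 329 CPM with a median of 276 CPM in the organoids labelled untreated (282 ± 21.2, n = 9, a coefficient of variation of 7.53%). Among those labelled TNF its coefficient of variation was 10.4%, beside 9.83% for Naip2. The m-ICc12 libraries labelled untreated had 3.27, 8.16 and 0.936 CPM and the MEF libraries 0.285, 0.677 and 0.382 CPM. Again no organoid library came near the lines.

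Nlrp3 (ENSMUSG00000032691, chr11:59541568-59566956, plus strand) was the exception. It was at 0 in 17 of the 18 organoid libraries, with 5 counts (0.150 CPM) in Z909 labelled TNF, and at 0 in 5 of the 6 m-ICc12 libraries, with 1 count in M3 labelled TNF. The MEF libraries had 0, 15 and 25 counts, which is 0, 0.376 and 0.955 CPM. Nlrp3 was thus barely counted in any library, and R2, R3 and Z909 labelled TNF were the only ones over the floor of 3 counts.

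Aim2 (ENSMUSG00000037860, chr1:173350879-173466040, plus strand), the DNA sensor, was the lowest of the members expressed in organoids, and it varied most between cultures. Its organoid values labelled untreated ran from 5.97 to 24.9 CPM with a median of 10.6 CPM (12.8 ± 6.77, n = 9). It had 2, 1 and 1 counts in the m-ICc12 libraries labelled untreated and 0 in the 3 labelled TNF. The MEF libraries were uneven, with 53, 13 and 3 counts, or 1.26, 0.326 and 0.115 CPM, all under the lowest organoid library.

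Pycard (ENSMUSG00000030793, chr7:127989708-127993867, minus strand), which encodes the adaptor ASC, ran from 214 to 285 CPM with a median of 254 CPM in organoids labelled untreated (250.3 ± 28.1, n = 9). The m-ICc12 libraries labelled untreated had 31, 18 and 9 counts and the MEF libraries 15, 4 and 12 counts. The adaptor gene was thus counted at 4 to 31 reads in the untreated-labelled libraries of both lines, against 4680 to 8323 in those of the organoids.

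**Figure D1:**
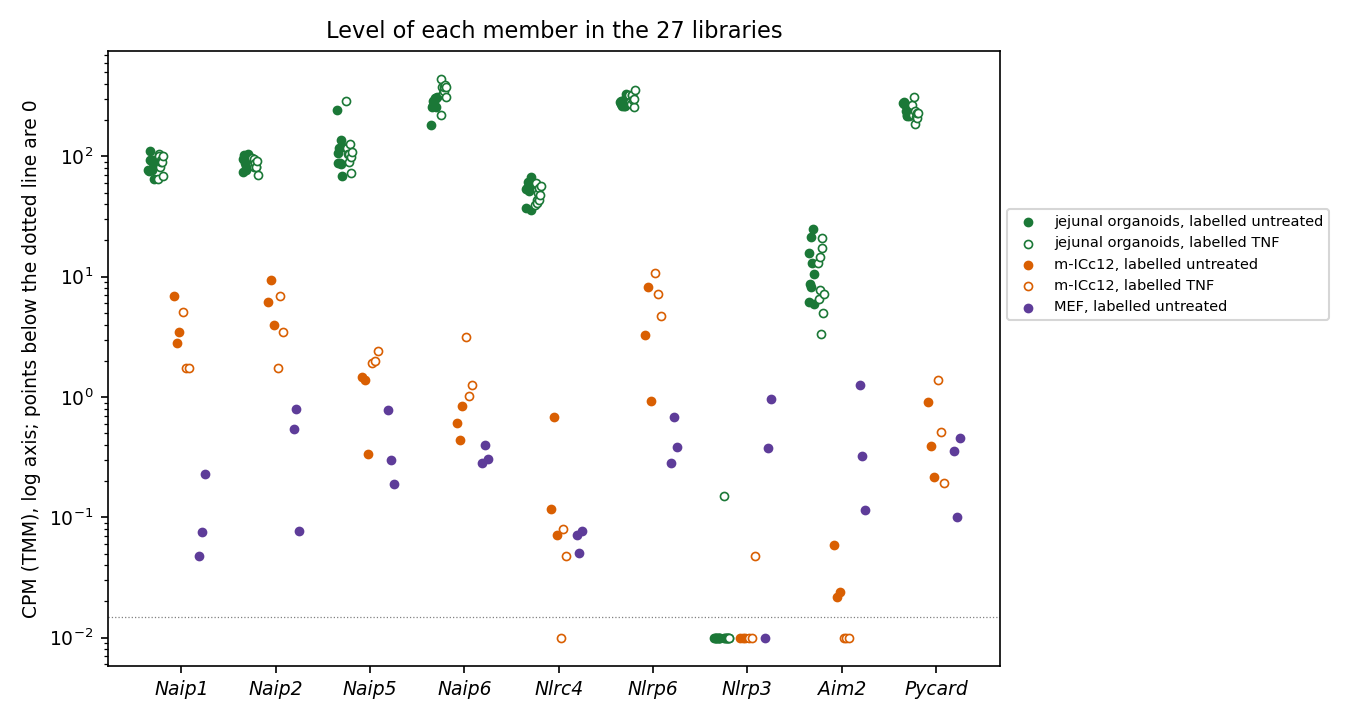
Level of each of the 9 genes in each of the 27 libraries, in CPM on a log axis, with values of 0 drawn under the dotted line, coloured by organoid, m-ICc12 or MEF, filled for libraries labelled untreated and open for those labelled TNF. All organoid libraries lie above all libraries of both lines for 8 genes, and Nlrp3 is at 0 in 17 of 18 organoid libraries. Over all genes tested, 31.6% were called as higher in organoids than in m-ICc12 cells and 34.6% than in MEFs. The share of all genes that separate without overlap was not computed.

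Put on a common footing per kilobase of annotated exon, the order of levels in the organoids labelled untreated was Pycard (65.9 ± 7.40 CPM per kb), Nlrp6 (55.4 ± 4.17), Naip6 (40.0 ± 5.80), Naip5 (22.5 ± 9.87), Naip2 (18.4 ± 2.17), Naip1 (15.5 ± 2.53), Nlrc4 (11.0 ± 2.19) and Aim2 (3.65 ± 1.93), with Nlrp3 at 0. Several neighbours in that order were not clearly apart: Pycard was above Nlrp6 in 7 of 9 cultures and Naip5 above Naip2 in 5 of 9. Nlrp6 was above Naip6, Naip2 above Naip1, Naip1 above Nlrc4 and Nlrc4 above Aim2 in 9 of 9 cultures, and Naip6 was above Naip5 in 8 of 9, with Z908 the exception. The choice of length matters for Pycard, whose coding sequence is 579 bases of 3800 exonic bases. Per kilobase of coding sequence it stood at 432 CPM per kb against 102 for Nlrp6, and Naip1 and Naip2 then came out nearly level at 20.4 and 20.5.

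In the line the order differed. In m-ICc12 cells labelled untreated Naip2 led with 1.34 CPM per kb of exon, followed by Nlrp6 with 0.811, Naip1 with 0.792, Naip5 with 0.203 and Pycard with 0.133, while Naip6 came after them with 0.0922.

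The difference between organoids and m-ICc12 cells was tested on the libraries labelled untreated with edgeR's quasi-likelihood test, with Benjamini-Hochberg adjustment over 12962 genes. All 8 members tested were higher in organoids, in a comparison in which 60.9% of all genes tested were called and 31.6% were called as higher in organoids. Nlrp3 was not tested, since it failed the filter of 10 counts in 50% of a group's libraries. Of the 8, Nlrc4 and Aim2 passed that filter only through the organoid libraries, so they had to be higher there. The organoid replicates are cultures of different mice, whereas those of m-ICc12 cells are repeated samples of a single line, told apart by number only. The p-values measure the spread between these replicates and not between epithelial lines.

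The size of the difference varied between members. Fold differences here are ratios of summed counts relative to summed library sizes, with 95% intervals that cover counting error only. Naip2 was 13.3 times higher in organoids (12.4 to 14.2), and its log2 fold change was 3.79 ± 0.24 (SE, adjusted p = 8.2e-10). Naip1 was 20.5 times higher (18.7 to 22.4), with a log2 fold change of 4.32 ± 0.28 (adjusted p = 1.1e-09). These were the members with the smallest differences.

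The flagellin sensors differed by far more. Naip5 was 111 times higher in organoids (93.7 to 134), with a log2 fold change of 6.82 ± 0.53 (adjusted p = 9.2e-09). Naip6 was 435 times higher (348 to 552), with a log2 fold change of 8.78 ± 0.26 (adjusted p = 1.5e-13). Their partner Nlrc4 was 172 times higher (125 to 242), with a log2 fold change of 7.46 ± 0.52 (adjusted p = 2.5e-09).

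Nlrp6 was 64.9 times higher in organoids (59.5 to 70.8) and its log2 fold change was 6.10 ± 0.47 (adjusted p = 9.5e-09). For the adaptor Pycard the ratio was 524 (406 to 691) and the log2 fold change 9.02 ± 0.32 (adjusted p = 9e-13). The ratio for Aim2 rested on 4 counts in the m-ICc12 libraries, so its interval was wide: 395 (154 to 1450). The median log2 fold change of the 8 members was 7.14, against 0.03 over all genes tested.

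The direction held for all 8 with the treatment labels exchanged, but the sizes moved. The log2 fold changes were then 5.23 for Naip1, 4.26 for Naip2, 5.85 for Naip5, 7.97 for Naip6, 9.50 for Nlrc4, 5.41 for Nlrp6, 11.12 for Aim2 and 8.86 for Pycard. Single m-ICc12 cultures mattered as well: without M2 the value was 9.13 for Nlrc4 and 7.12 for Nlrp6, and without M1 it was 9.68 for Pycard. The order of the larger values thus changed with these choices, while Naip2 and Naip1 stayed the smallest with the labels exchanged.

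Against MEFs 13144 genes were tested, the members included, of which 67.2% were called. All 9 members were called, 8 as higher in organoids (34.6% of all genes were) and Nlrp3 as lower (32.6% of all genes were). The MEFs had no library labelled TNF. By the names of the deposited tables, treated organoids were thus compared here with untreated MEFs. With the treatment labels exchanged, 8 members were again called as higher and 1 as lower. Naip1 and Nlrc4 passed the filter only through the organoid libraries and Nlrp3 only through the MEF libraries, so the direction of these 3 was fixed. Nlrc4 had a log2 fold change of 9.60 ± 0.37, Naip1 of 9.65 ± 0.35, Naip6 of 9.68 ± 0.25 and Pycard of 9.75 ± 0.29 (adjusted p from 1.2e-14 to 1.2e-12). Aim2 had the smallest of the positive differences, a ratio of 20.3 (16.0 to 26.2) and a log2 fold change of 4.47 ± 0.76 (adjusted p = 7.6e-05). Without R1 the log2 fold change was 5.80 for Aim2 and 8.84 for Naip5, and without R3 it was 10.35 for Naip1.

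The lower level of Nlrp3 in organoids rested on R2 and R3. Against a floor of 3 counts over the 9 organoid libraries, Nlrp3 was at least 29.5-fold higher in MEFs, with edgeR's adjusted p = 0.0072. DESeq2 gave an adjusted p of 0.11, so this call depends on the tool. Its log2 fold change of -6.68 was -5.50 without R3 (adjusted p = 0.038) and -4.27 with the treatment labels exchanged.

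Between the lines, m-ICc12 cells and MEFs, 59.3% of the 12830 genes tested were called, and 5 of the 8 members tested. Naip1 (log2 fold change 5.21 ± 0.90, adjusted p = 0.00029), Naip2 (3.70 ± 0.76, adjusted p = 0.001) and Nlrp6 (3.15 ± 0.88, adjusted p = 0.0077) were higher in m-ICc12 cells. Naip1, Naip2 and Nlrp6 were also the 3 members with the highest levels per kilobase in that line. Nlrp3 (adjusted p = 0.025) and Aim2 (adjusted p = 0.028) were lower, on 0 and 4 counts in m-ICc12 cells against 40 and 69 in MEFs. Naip5, Naip6 and Pycard had log2 fold changes of 1.24 ± 1.02, 0.88 ± 1.02 and 0.66 ± 1.14 and were not called. Naip1 passed the filter only through m-ICc12 cells and Aim2 and Nlrp3 only through MEFs, so their direction was fixed. By the names of the deposited tables, the m-ICc12 libraries compared here were treated and the MEFs were not. Leaving out 1 culture at a time left 2 to 4 calls. Naip1 and Naip2 were called each time, Nlrp6 was not called without M2 (log2 fold change 2.16, adjusted p = 0.1), Aim2 was called only without R3 (adjusted p 0.085 to 0.38 without the others) and Nlrp3 only without R1 (0.075 to 0.13 without the others).

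Shares within the Naip family do not depend on the scaling between libraries. The counts of the 4 genes were divided by exon length and expressed as a percentage of their sum, from 6706 to 24935 Naip counts per organoid library. In the organoids labelled untreated Naip6 made up 41.7% ± 6.63, Naip5 23.0% ± 8.61, Naip2 19.1% ± 1.80 and Naip1 16.2% ± 2.88 (SD, n = 9). Naip6 was the leading paralog in 8 of 9 cultures.

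The family had another composition in m-ICc12 cells. There Naip2 made up 54.8% ± 13.4 and Naip1 33.2% ± 13.0 in the libraries labelled untreated, on 360 to 644 Naip counts, and Naip5 and Naip6 made up 7.73% ± 3.29 and 4.31% ± 2.80 (n = 3). Naip2 led in all 3 of these libraries per kilobase of exon, but in M1 the lead was narrow and depended on the length chosen. In M1 labelled untreated Naip1 had 235 counts against 210 for Naip2. Per kilobase of coding sequence it stood there at 1.63 CPM against 1.41 for Naip2. In organoids the mean share of Naip2 was under those of Naip6 and Naip5. In the m-ICc12 libraries labelled TNF, on 68 to 434 Naip counts, Naip2 made up 40.9% ± 22.9, Naip1 25.3% ± 15.9 and Naip5 20.7% ± 6.04, and in M1 Naip1 led with 43.5% against 17.1% for Naip2. In MEFs the shares rest on 21 to 70 counts and are too few to give an order.

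Culture Z908 departed from the other organoids in both of its libraries. Naip5 made up 43.7% of its Naip signal in the library labelled untreated and 46.1% in that labelled TNF, while Naip6 made up 24.9% and 27.2%. Its ratio of Naip5 to Naip6 per kilobase was 1.76 and 1.69, against 0.297 to 0.586 and 0.305 to 0.444 in the other 8 cultures. The 2 libraries of Z908 gave nearly the same ratio, and the ranges of the other cultures did not reach it.

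The sum over the family was not unusual in Z908. The 4 genes together came to 595 CPM labelled untreated and 670.5 CPM labelled TNF, within the ranges of 515 to 600 CPM and 576 to 750 CPM over all organoids. Without Z908 the Naip5 share was 20.5% ± 4.01 and the Naip6 share 43.8% ± 2.20 in the libraries labelled untreated (n = 8). The untreated-labelled library of Z908 also had the highest sum of the leukocyte genes among organoids, 20.2 CPM, while its TNF-labelled library had 7.84 CPM. Their part in the result was not tested.

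**Figure D2:**
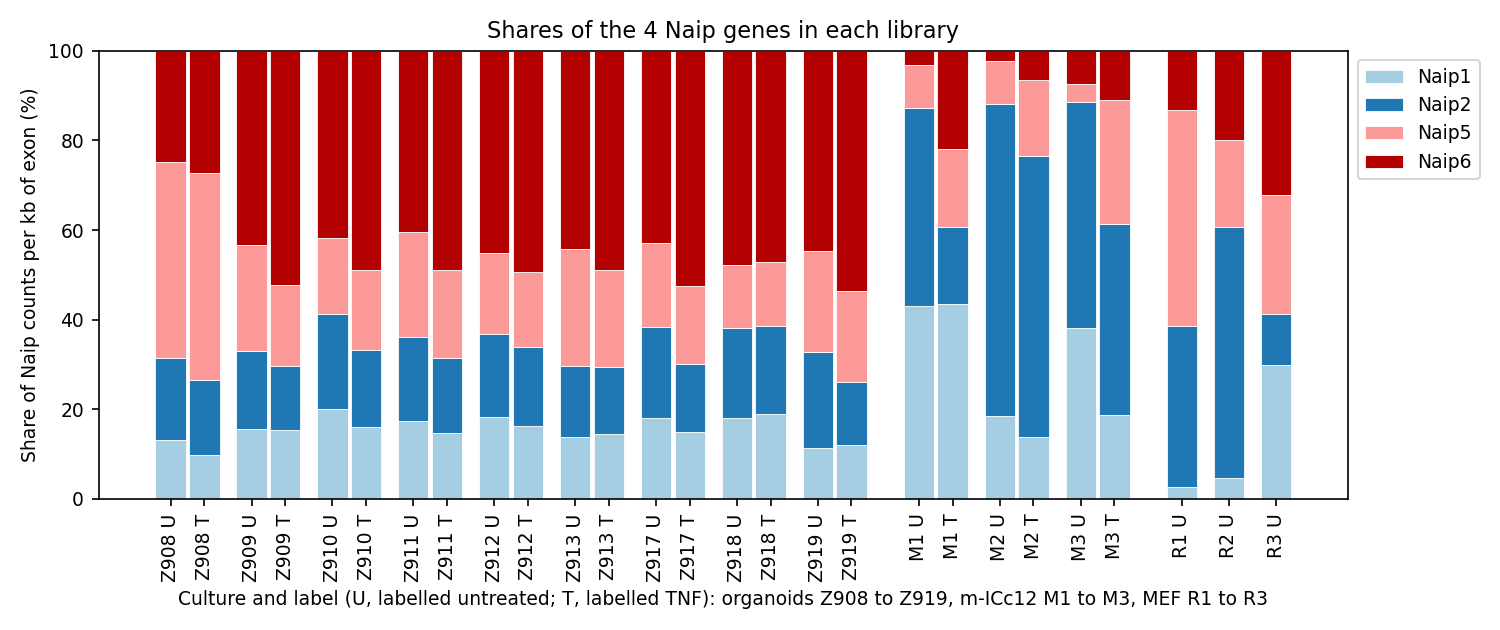
Share of Naip1, Naip2, Naip5 and Naip6 in the Naip counts per kilobase of exon, in percent, for each library with its culture and treatment label. Naip6 leads in every organoid library except the 2 of Z908, where Naip5 makes up 43.7% and 46.1%. Naip2 leads in the m-ICc12 libraries labelled untreated, though only narrowly over Naip1 in M1.

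Whether a culture keeps its level was asked by comparing the 2 libraries of each organoid culture, on log2 CPM over the 9 cultures. Naip5 had the closest relation: Pearson's r was 0.954 (exact permutation test over pairings, two-sided, p = 0.00033, adjusted over 8 genes 0.0026) and Spearman's rho 0.9 (adjusted p = 0.0123, exact permutation). Without Z908 and Z918, the cultures farthest from the median, r was 0.765. Without Z908 alone r was 0.874 (exact permutation, adjusted p = 0.0329), and without Z917 the adjusted p of rho was 0.0579 while that of r was 0.00694 (exact permutation). Aim2 followed, with r = 0.843 (exact permutation, adjusted p = 0.0228) and rho = 0.883 (adjusted p = 0.0123), and r = 0.739 without Z911 and Z917. For Aim2 the adjusted p rose to between 0.0502 and 0.0974 without Z910, Z917, Z918 or Z919. Thus Aim2 was at 21.6 and 14.6 CPM in the libraries of Z911 and at 24.9 and 21.0 CPM in those of Z917, but at 5.97 and 5.03 CPM in those of Z918.

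The other 6 genes did not pass the same test. Their r was 0.680 for Naip6, 0.549 for Naip1, 0.454 for Nlrp6, 0.285 for Pycard, -0.02 for Naip2 and -0.07 for Nlrc4. The r of Naip6 rested on its lowest culture, as rho was -0.08. That of Naip2 rested on Z919, without which r was 0.680, and it was 0.739 without Z909 and Z919. A p over the threshold with 9 cultures does not show that a relation is absent.

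**Figure D3:**
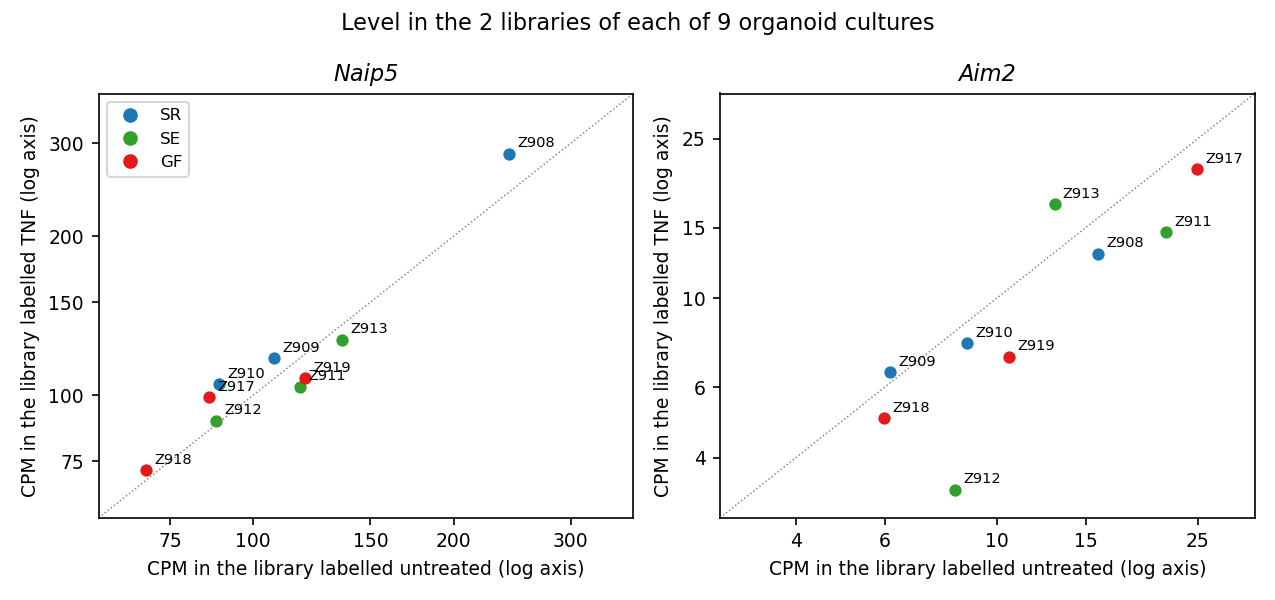
CPM in the library labelled TNF against CPM in the library labelled untreated of the same organoid culture, on log axes, for Naip5 (left) and Aim2 (right), with 1 point per culture coloured by facility and a dotted line where both libraries are equal. Cultures high in one library are high in the other (r = 0.954 for Naip5 and 0.843 for Aim2), with Z908 at the top for Naip5.

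No member was called as different between the organoids of germ-free and SPF mice. In the libraries labelled untreated, 0 of the 8 members tested were called with edgeR, in a comparison in which 0.0325% of 12315 genes were called (491 genes, or 3.99%, at an unadjusted p under 0.05, none of them a member). The log2 fold changes, GF against SPF, ran from -0.51 ± 0.27 for Naip5 (unadjusted p = 0.076) to 0.17 ± 0.46 for Aim2. Naip5 was at 85.8, 68.9 and 120 CPM in GF cultures, at 242, 107 and 88.9 CPM in SR cultures and at 118, 87.9 and 136 CPM in SE cultures, so the groups overlapped. Without Z908 the log2 fold change of Naip5 was -0.24 ± 0.18. The shares within the Naip family, averaged over the libraries of a culture, did not pass a test between GF and SPF either, and the widest gap was -6.44 percentage points for Naip5 (exact permutation test, two-sided, adjusted p = 0.503). Without Z908 that gap was -2.32 points (exact permutation, adjusted p = 0.469), and the gap of the Naip6 share went from 5.12 to 1.73 points. Between facilities SR and SE, 0 of 8 members and 0% of 12219 genes were called (486 genes at an unadjusted p under 0.05). There the log2 fold change of Naip5 was 0.37 ± 0.29 with Z908 and -0.21 without it.

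The values of Nlrp6 and Pycard overlapped between the origins. Nlrp6 was at 282, 275 and 291 CPM in SR, at 261, 276 and 293 CPM in SE and at 265, 264 and 329 CPM in GF cultures. Pycard was at 277, 285 and 272 CPM in SR, at 273, 238 and 214 CPM in SE and at 222, 254 and 216 CPM in GF cultures. The standard errors of the log2 fold changes between GF and SPF were 0.11 for Nlrp6, 0.12 for Pycard, 0.16 for Naip1 and 0.20 for Nlrc4, so differences of that size on the log2 scale were within the error.

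The effect of the treatment label in organoids was small for the sensors and the adaptor. Of the 8 members tested, 0 were called with edgeR, where 1.39% of 12104 genes were called (1072 genes, or 8.86%, at an unadjusted p under 0.05, Naip6 among them). The log2 fold changes, labelled TNF against labelled untreated, were 0.037 for Naip1, -0.056 for Naip2, 0.068 for Naip5, -0.14 for Nlrc4, 0.10 for Nlrp6, -0.28 for Aim2 and -0.10 for Pycard. Their median with Naip6 was -0.01, against 0.00 over all genes.

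Naip6 was the member that moved in 1 direction in every pair. In the order of the cultures from Z908 to Z919 its level labelled untreated and then labelled TNF was 181 and 222, 258 and 442, 286 and 380, 268 and 338, 285 and 350, 304 and 376, 259 and 393, 304 and 310, and 310 and 376 CPM. It was higher in the library labelled TNF in 9 of 9 organoid cultures, and also in 3 of 3 m-ICc12 pairs, which are matched by number only. The log2 fold change was 0.37 ± 0.11 (unadjusted p = 0.0016, adjusted p = 0.097), so it missed the threshold.

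That miss depended on the model. The 2 libraries of an organoid culture come from the same mouse, and with culture as a block the log2 fold change of Naip6 was 0.36 ± 0.06 with an adjusted p of 5.5e-05, 1 of 8 members called among 397 genes in all, against 168 without the block. DESeq2 gave an adjusted p of 0.028, and leaving out Z908 gave 0.0051 with edgeR. Naip6 was not called with RLE in place of TMM scaling, without the filter on counts or with facility as a covariate. Leaving out any culture other than Z908 gave no call either, with edgeR's adjusted p up to 0.31. By the names of the deposited tables, the same values read as lower Naip6 after TNF. The sum of the stem cell genes Lgr5, Olfm4 and Ascl2 moved with the label as well: it was lower in the library labelled TNF in 9 of 9 organoid cultures, with 678 to 2137 CPM labelled untreated and 227 to 954 CPM labelled TNF, and its part in the result was not tested.

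Shares were compared between the labels as well. From the library labelled untreated to that labelled TNF the Naip6 share was higher by 5.96 percentage points on average, in 8 of 9 cultures (exact permutation test of the paired differences, two-sided, p = 0.0078, adjusted over 8 tests 0.031), with Z918 the exception. The Naip2 share was lower by 2.76 points in 9 of 9 cultures (exact permutation, p = 0.0039, the smallest the design can give, adjusted p = 0.031). Shares sum to 100%, so these changes are not independent. The Naip1 and Naip5 shares differed by -1.49 and -1.71 points (exact permutation, adjusted p = 0.164 for each). Both calls were lost when any culture other than Z918 was left out, where the smallest adjusted p that 8 cultures allow a lone test is over the threshold.

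**Figure D4:**
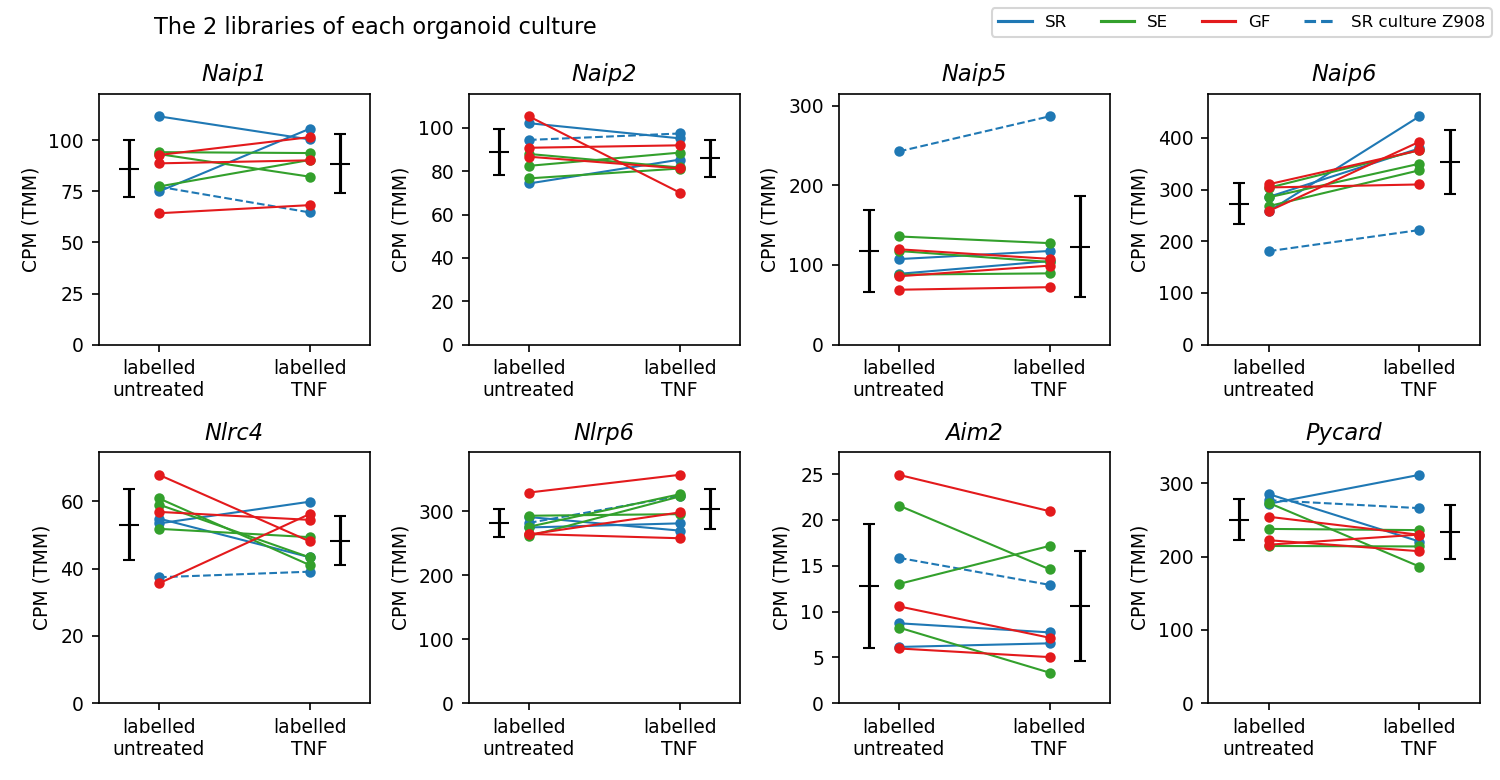
CPM of each of the 8 genes expressed in organoids in the library labelled untreated and the library labelled TNF, with 1 line per organoid culture coloured by facility, dashed for Z908, and black bars for the mean ± SD (n = 9). Naip6 is higher in the library labelled TNF in 9 of 9 cultures (means 273 and 354 CPM), and the lines of Naip1 and Naip2 cross.

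In m-ICc12 cells 0 of the 6 members tested were called for the treatment label, where 0.11% of 11861 genes were (556 genes, or 4.69%, at an unadjusted p under 0.05, no member among them). Naip6 went from 0.613 to 3.13 CPM in M1, from 0.436 to 1.02 CPM in M2 and from 0.840 to 1.25 CPM in M3, on 18 to 38 counts per library, and its log2 fold change was 1.49 ± 1.08. Naip1 was lower in the library labelled TNF in 3 of 3 pairs, matched by number only (log2 fold change -0.66 ± 0.71). Such a shared direction was not particular to these genes. Naip5 was also higher in 3 of 3 pairs, and Naip2, Nlrc4 and Aim2 were lower in 3 of 3, the last 2 on few counts.

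The difference between the label effects was tested directly. Between GF and SPF organoids it was called for 0 of 8 members and for 0% of 12640 genes (323 genes at an unadjusted p under 0.05), and for Naip6 it was -0.11 ± 0.23 on the log2 scale. Between m-ICc12 cells and organoids it was called for 0 of 8 members, where 0.159% of 13183 genes were. Nlrc4 (-2.07 ± 0.79, unadjusted p = 0.015), Naip1 (-0.92 ± 0.37, unadjusted p = 0.019) and Naip6 (0.80 ± 0.37, unadjusted p = 0.041) had the smallest unadjusted p among the members, with edgeR's adjusted p from 0.57 to 0.74. These 3 also met the study's own rule (p of 0.05 or less before adjustment, log2 difference of 0.5 or more), as did 5.67% of all genes. In m-ICc12 cells the Nlrc4 value rests on 4, 31 and 3 counts labelled untreated and 0, 3 and 1 counts labelled TNF.

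The partners of these sensors were read from a list of 25 further genes of the pathway: other sensors, proteases, pore formers, cytokines and regulators. Between organoids and m-ICc12 cells 19 of them could be tested, of which 10 were higher in organoids and 5 lower, in a comparison in which 31.6% of all genes were called as higher and 29.3% as lower. Nlrp1b, Nlrp9b, Gsdmd and Il18 passed the filter only through organoids and Nlrp10 and Gbp2 only through m-ICc12 cells, so their direction was fixed. Casp1, which encodes the protease that ASC recruits, was at 99.8 ± 11.1 CPM in organoids, 5.80 ± 2.53 CPM in m-ICc12 cells and 0.124 ± 0.0289 CPM in MEFs (log2 fold change against m-ICc12 cells 4.12 ± 0.24, adjusted p = 2.2e-10). Serpinb1a, an inhibitor of inflammatory proteases, was at 166 ± 33.8 CPM in organoids and 0.384 ± 0.195 CPM in m-ICc12 cells.

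Other sensors and the output genes differed in both directions. Nlrp9b and Nlrp1b, sensors of other ligands, were at 12.2 ± 8.11 and 5.74 ± 2.57 CPM in organoids and at 0 to 2 counts in m-ICc12 libraries labelled untreated. The substrates Gsdmd and Il18 were at 26.8 ± 10.7 and 4.07 ± 2.80 CPM in organoids against 0 to 5 and 0 to 1 counts in m-ICc12 cells, and Il1b was at 0 in all 27 libraries. Nek7, the cofactor of NLRP3, went the other way, at 27.9 ± 6.91 CPM in organoids and 221 ± 30.4 CPM in m-ICc12 cells (log2 fold change -2.96 ± 0.18, adjusted p = 3.2e-10). The sensor gene Nlrp10 (log2 fold change -4.50 ± 1.44, adjusted p = 0.013) and Ninj1, which acts in the rupture of the dying cell's membrane (-1.31 ± 0.25, adjusted p = 0.00026), were lower in organoids too. Casp8, shared with apoptosis, had a log2 fold change of 0.01 ± 0.14 and was not called.

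For the treatment label in organoids, 4 of the 17 partners tested were called, against 1.39% of all genes. Casp4, which encodes the noncanonical protease Caspase-11, was at 50.3 ± 8.72 CPM labelled untreated and 15.6 ± 3.74 CPM labelled TNF (log2 fold change -1.70 ± 0.15, adjusted p = 1.7e-08), lower in 9 of 9 cultures. Gsdmd was at 26.8 ± 10.7 CPM labelled untreated and 8.24 ± 1.97 CPM labelled TNF (-1.71 ± 0.22, edgeR's adjusted p = 1.3e-05). The study reports that TNF could induce Caspase-11 and Gsdmd in organoids, the direction these values take with the labels exchanged. The transcription factor gene Irf1 had a log2 fold change of -1.39 ± 0.18 (edgeR's adjusted p = 1.1e-05). Irf8, a regulator known to control Naip transcription in myeloid cells, was higher in the library labelled TNF in 9 of 9 cultures, at 133 ± 25.4 and 179 ± 18.5 CPM (0.43 ± 0.10, adjusted p = 0.017). Casp1 had a log2 fold change of -0.14 ± 0.08 and was not called.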

How the data were processed

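RNA of 27 libraries was sequenced as single-end reads from a poly-A kit that the labels call stranded and the paper does not. The authors used Trimmomatic against adapters, cut 5 bases from the 3′ side of each read and mapped with STAR (2.5.4b in the submitters' processing notes) to GRCm38, Ensembl release 91. The paper names GenomicRanges and the notes featureCounts as the counter, and the use of strand and of reads that align to several places is not given in the sources used here, which bears on the Naip paralogs. The deposited values are whole-number counts for 22524 genes, without normalization, with 6071103 to 43843615 counts per library. Intervals and floors cover counting error only.

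Groups follow the sample labels. Counts were scaled by TMM and tested with edgeR 4.0.16 (R 4.3.3), quasi-likelihood F-test, on genes with at least 10 counts in 50% of a compared group's libraries, with Benjamini-Hochberg adjustment over all of them and a threshold of 0.05. The standard error is the log2 fold change divided by the root of F. Alternatives were DESeq2 1.42.0, RLE scaling, no filter, exchanged treatment labels, all libraries in 1 fit, culture or facility as a term, the thresholds of the study and leaving out each culture. Shares and correlations were tested by exact permutation (scipy 1.17.1) on log2 CPM with a prior count of 2 for the correlations. The exact tests were checked on small cases with known answers, and the fits on simulated counts. Library pairs of an organoid culture come from 1 mouse, and their deviations from the group means correlated with a mean r of 0.173 (0.0776 to 0.292 over 9 pairs). For m-ICc12 cells the mean r was 0.031 (-0.0067 to 0.0925 over 3 pairs). The highest of these lies within the range of the organoid pairs. These values therefore cannot tell whether the m-ICc12 pairs share more than a number.

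Gene positions, lengths and transcripts came from GENCODE vM21 on GRCm38, and Naip coding sequences were aligned with mafft 7.526. Transcript windows of 100 bases were compared first, and those of 120 bases were added after these values were seen. All 9 members were named in the text by rule, with 25 pathway partners listed by known role and, for each member, the 3 genes most like it; those of Naip1 are not reported here. Members and lists were chosen with earlier results of these data known, and the study displayed inflammasome genes from these samples, so their direction is not independent evidence.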

Additional observations from a re-analysis of the deposited data

Results flagged for a closer look

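Within each group of 9 organoid libraries, the highest and the lowest value were compared with their nearest neighbour, and 11 of 27 groups of values held a library far from the others by Dixon's criterion (critical value 0.493). Chance alone would flag about 1 in 20 groups, and several of these quantities are computed from the same counts. Culture Z908 accounts for 9 of the 11. Its Naip5 level was the highest, at 242 CPM labelled untreated (next 136 CPM) and 287 CPM labelled TNF (next 127 CPM), and its Naip6 level labelled untreated was the lowest, at 181 CPM (next 258 CPM). Accordingly its Naip5 share of 43.7% and 46.1%, its Naip6 share of 24.9% and 27.2% and its Naip5 to Naip6 ratio of 1.76 and 1.69, labelled untreated and labelled TNF, were flagged too.

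Nlrp6 in Z919 labelled untreated, at 329 CPM (next 293 CPM), was the only flagged value of that gene, and the library labelled TNF of this culture had 357 CPM. Nlrp3 in Z909 labelled TNF, at 0.150 CPM, stands apart because the other 8 libraries were at 0, and it rests on 5 counts.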

How the results depend on the processing

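The higher level of 8 members in organoids than in m-ICc12 cells or MEFs kept its direction under every alternative run, with 8 and 9 calls except for DESeq2, which gave no adjusted p for Nlrp6 against m-ICc12 cells and called the other 7, and which did not call Nlrp3 against MEFs (adjusted p = 0.11). The sizes moved by over 1.5 times for several members when the labels were exchanged or M1, M2, R1 or R3 was left out, as given beside those results. Exchanging the treatment labels turned the sign of every label effect. In organoids the log2 fold changes then read -0.037 for Naip1, 0.056 for Naip2, -0.068 for Naip5, -0.37 for Naip6, 0.14 for Nlrc4, -0.10 for Nlrp6, 0.28 for Aim2 and 0.10 for Pycard. In m-ICc12 cells they read 0.66, 0.65, -1.01, -1.49, -0.88 and -0.38 for Naip1, Naip2, Naip5, Naip6, Nlrp6 and Pycard. The difference of effects by origin read 0.11 for Naip6, and that by cell type 0.92, -0.80 and 2.07 for Naip1, Naip6 and Nlrc4. Between m-ICc12 cells and MEFs, the exchange cost the call of Nlrp3 (adjusted p = 0.093) and testing all genes with 1 count that of Aim2 (adjusted p = 0.076).

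With culture as a replicate block, 1 member (Naip6) was called for the treatment label in organoids, and DESeq2 also called 1. The pairing of libraries changed no call in m-ICc12 cells, where 0 members were called with the block, among 6 genes in all against 13 without it. By the study's thresholds (unadjusted p of at most 0.05, log2 fold change of at least 0.5) 3 members differed in label effect between m-ICc12 cells and organoids. Leaving out 1 culture gave 0 to 1 calls for the label in organoids, with Naip6 between 0.32 and 0.42 (adjusted p 0.0051 to 0.31), 2 to 4 for m-ICc12 cells against MEFs, 0 to 2 for the Naip shares and 1 to 2 for the consistency of cultures. It also let these small values pass through 0: Naip1 (-0.021 to 0.067) and Naip2 (-0.083 to 0.0097) for the label, Naip6 by origin (-0.25 to 0.022), Naip5 between SR and SE (-0.21 to 0.62), Pycard between the lines (-0.045 to 1.09) and the Naip1 share, GF minus SPF (-1.31 to 2.07 points). That share was -0.0263 points with coding length and -0.0299 without division by length. The cause was not tested. Depth limits Nlrp3 everywhere and Nlrc4, Aim2 and Pycard in the lines, where many libraries hold few counts.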

Other observations

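The genes whose levels were most like those of a member over the 18 organoid libraries were read out of 12104 genes, as a description without a test, since 2 libraries share each culture and the highest of many correlations is high by selection. For Naip5 they were Cldn7, a tight junction gene (Pearson's r = 0.899), Cox7c (0.852) and Rbck1 (0.843). For Naip6 they were Tiparp, a target of the aryl hydrocarbon receptor (0.868), Vapa (0.811) and Camkmt (0.803). For Aim2 they were Krt7, Ly6d and Tagln2 (0.852, 0.827 and 0.822), of which Krt7 encodes a keratin. Nlrc4 was most like Pclo (0.841), Naip2 most like Insr (0.797), Nlrp6 most like Prss12 (0.792) and Pycard most like Zfp809 (0.783). None of the leading genes was itself a member. Between members, the lowest r were -0.58 for Naip1 and Naip5 and -0.55 for Naip5 and Nlrc4. Next came -0.54 for Naip1 and Nlrp6 and -0.50 for Naip5 and Naip6. Except for Naip1 and Nlrp6, these pairs include Naip5, which was highest in the 2 libraries of Z908. No r over the 18 libraries was computed without Z908.

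Among the further pathway genes, 1 sensor gene was singled out after its values were seen: Nlrp12 had 79 counts in Z908 labelled untreated, the library with the highest leukocyte sum, and was at 0 in the library labelled TNF of the same culture.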
